A study of Mus musculus with 6 samples.

Results

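The 9 genes described here act in the retinoic acid pathway: the retinaldehyde dehydrogenases Aldh1a1 and Aldh1a2, the carriers Crabp1 and Crabp2, the receptors Rara, Rarb and Rarg, and the limiting enzymes Dhrs3 and Cyp26b1. They were found by symbol among the 43629 genes of the count files, and all 9 were among the 15470 genes that passed the filter on low counts. The list was drawn up with the contrast of DNMT1 siRNA against negative siRNA already known, so the levels and fold changes of these genes are a description, and no p is given for them.

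Retinoic acid is made from vitamin A (retinol) in a pair of steps, first to retinaldehyde by alcohol and retinol dehydrogenases and then to the acid by the Aldh1a enzymes. Cellular retinoic acid-binding proteins carry it, and in the nucleus it binds retinoic acid receptors that sit with an RXR partner on response elements in DNA. In the embryonic heart the epicardium is a known source of retinoic acid through Aldh1a2, and the signal is known to bear on growth of the ventricular wall. Dnmt1 is the enzyme that copies DNA methylation at CpG sites onto new strands when cells divide.

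RNA-Seq was performed on primary ventricular cardiomyocytes of CD-1 mouse embryos at embryonic day 13.5 that had received 12 nM of DNMT1 siRNA or negative siRNA 72 h earlier, with 3 samples per treatment. Both groups were taken from ventricles pooled over a litter, cleared of fast-attaching cells by an hour in uncoated flasks, transfected with lipofectamine RNAiMAX after 48 h in culture, and sorted magnetically for VCAM1 before RNA was isolated. The DNMT1 siRNA was a pool of 4 siRNAs, and the control was a commercial siRNA (AllStars negative control). The labels do not say whether the 3 samples came from separate litters, so the errors measure the spread between these samples.

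The titles of the treated samples name DNMT1, whereas their treatment tag names DNMT3a siRNA, and the titles were followed. Dnmt1 fell to 24.5% of its mean with negative siRNA, from 158.7, 127.1 and 132.5 CPM, the read count scaled for library size, to 35.6, 36.2 and 30.7 CPM (log2 fold change -2.03, SE 0.11, adjusted p = 0.000192 in edgeR's quasi-likelihood test). The de novo methyltransferases Dnmt3a (log2 fold change 0.24, SE 0.08, adjusted p = 0.0919 in edgeR) and Dnmt3b (0.21, SE 0.17, adjusted p = 0.444) did not pass. Reads on genes numbered 27852412 to 35896018 in the negative siRNA libraries and 13739561 to 16186310 in the DNMT1 siRNA libraries. Reads assigned to no gene, as a share of these and the reads on genes, made up 17.0% ± 1.64 in the control libraries against 31.2% ± 4.55 in the treated ones (SD, n = 3, p = 0.1 in a two-sided exact permutation test, which 3 against 3 cannot go below). This property of the libraries moved with the treatment, and its part in the results below was not tested.

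Across the table, 1004 of the 15470 genes (6.49%) passed both limits, a fold change beyond 1.5 either way at an FDR under 0.05, of which 659 (4.26%) were higher and 345 (2.23%) lower with DNMT1 siRNA. Of the 9 pathway genes, 2 passed: Aldh1a1 was higher and Crabp2 was lower. The samples of the treatments did not overlap for 5 of the 9 genes (Crabp2, Aldh1a1, Aldh1a2, Rarb and Dhrs3), where 36.0% of all tested genes did not overlap. Log2 fold changes were positive for 4 and negative for 5 of the 9, with a median of -0.39 against -0.0049 over all genes tested. In bulk RNA, fewer cells of a type and less RNA per cell cannot be told apart.

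**Figure D1:**
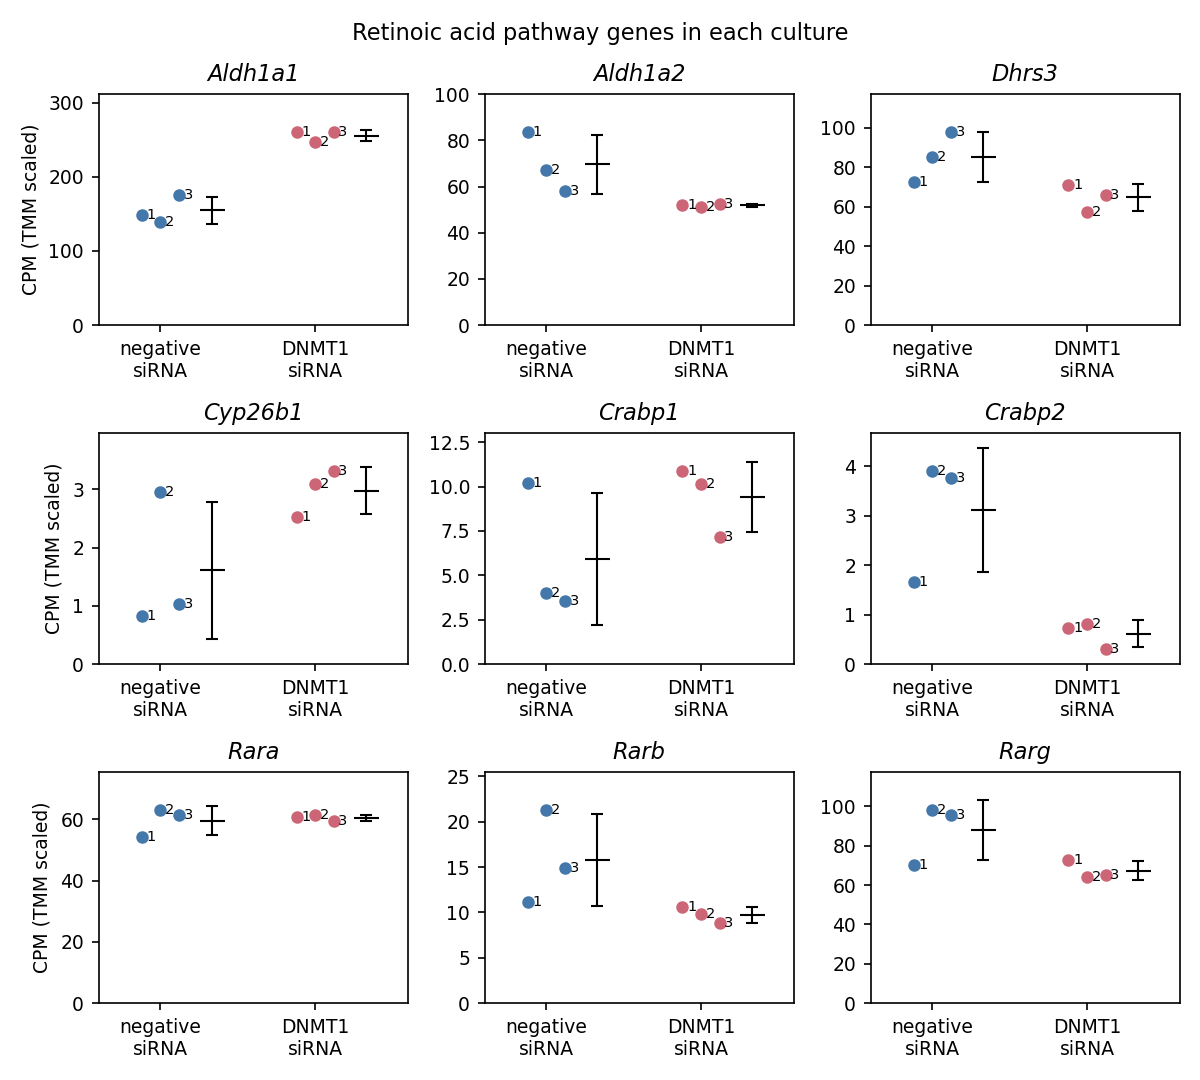
CPM of each of the 9 genes (vertical axis, from 0, scaled by TMM) in the 3 negative siRNA samples (blue) and the 3 DNMT1 siRNA samples (red), numbered by replicate, with the mean ± SD beside each group. Aldh1a1 lay between 246.6 and 260.2 CPM in the DNMT1 siRNA samples, above all negative siRNA samples, and Crabp2 lay below 1.67 CPM in all DNMT1 siRNA samples.

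The synthesis genes had fold changes of opposite sign, and Aldh1a1 alone of them passed the limits. Aldh1a1 (ENSMUSG00000053279, chr19:20492715-20643465, GRCm38) encodes a dehydrogenase that turns retinaldehyde into retinoic acid. It stood at 149, 139.7 and 175 CPM in negative siRNA replicates 1 to 3, and at 259.8, 247 and 260.2 CPM in DNMT1 siRNA replicates 1 to 3. All 3 treated samples lay above all 3 controls. The means were 154.6 ± 18.3 and 255.5 ± 7.77 CPM (SD, n = 3), so that Aldh1a1 rose to 165.3% of the control mean (log2 fold change 0.73, SE 0.09, 95% interval 0.52 to 0.93). It passed both limits with each sample left out in turn, with log2 fold changes of 0.66 to 0.82.

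Aldh1a2 (ENSMUSG00000013584, chr9:71215789-71296243) encodes the enzyme that supplies most retinoic acid in the early embryo and marks the epicardium. Its level was 83.6, 67.1 and 58.3 CPM with negative siRNA and 52.2, 51.2 and 52.3 CPM with DNMT1 siRNA. The treated samples were close together and below the lowest control. The means were 69.6 ± 12.9 and 51.9 ± 0.600 CPM, a log2 fold change of -0.42 (SE 0.12, 95% interval -0.71 to -0.14), which passed neither the limit on fold change nor the FDR limit. Without negative siRNA replicate 1, the highest control, the value was -0.27. The FDR limit alone was passed in DESeq2, in edgeR's exact test, with no filter on low counts and with libraries thinned to the smallest. It was also passed without negative siRNA replicate 2 or 3. The limit on fold change was passed in none of the alternatives.

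Per kb of exon, which allows levels of different genes to be set side by side, Aldh1a1 and Aldh1a2 were alike in the negative siRNA samples, at 31.3 ± 3.70 and 30.8 ± 5.68 CPM per kb. Aldh1a1 made up 50.6% ± 6.64 of the sum of both in the controls and 69.3% ± 0.407 in the treated samples. The equal level rests on the union of all annotated exons of Aldh1a1 (4937 bases). With its principal transcript (2358 bases), a length chosen after the data were seen, Aldh1a1 stood at 65.6 ± 7.75 CPM per kb in the controls and Aldh1a2 again at 30.8.

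The sequences in front of transcript starts of these genes differ in CpG sites, the substrate of Dnmt1, and are shown for that reason, with every CpG in capitals. They come from the RefSeq promoter windows of GRCm38.p6, which hold 250 bases before a transcript start and 50 after it. The stretches lie on the plus strand at chr19:20601718-20601960 and chr9:71215539-71215788. That of Aldh1a2 ends at the start of the gene, whereas that of Aldh1a1 lies inside the annotated gene, in front of the internal start of its principal transcript.
Aldh1a1: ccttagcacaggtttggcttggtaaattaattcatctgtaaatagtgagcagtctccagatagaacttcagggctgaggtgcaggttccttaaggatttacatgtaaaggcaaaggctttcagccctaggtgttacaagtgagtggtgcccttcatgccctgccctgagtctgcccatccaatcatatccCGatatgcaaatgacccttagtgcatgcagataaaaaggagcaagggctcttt
Aldh1a2: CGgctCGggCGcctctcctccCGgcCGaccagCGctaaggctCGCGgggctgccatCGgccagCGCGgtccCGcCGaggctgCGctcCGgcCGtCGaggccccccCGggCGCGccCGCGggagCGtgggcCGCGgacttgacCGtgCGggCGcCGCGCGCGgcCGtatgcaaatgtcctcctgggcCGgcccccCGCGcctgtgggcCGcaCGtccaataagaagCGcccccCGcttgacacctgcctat
The Aldh1a1 stretch held 1 CpG in 243 bases and had a GC content of 46.1%, whereas the Aldh1a2 stretch held 40 CpGs in 250 bases at a GC content of 77.6%. In whole windows of 300 bases, Aldh1a2 had 50 CpGs, more than 99.1% of 32851 windows in the table, and Aldh1a1 had 3 in the window near the gene's first start and 1 in the internal window, against a median of 7. Methylation of these stretches was not analysed here.

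Aldh1a7, a close paralog of Aldh1a1 on the same chromosome, was looked at after the values of Aldh1a1 were seen. It rose from 2.89 ± 1.22 to 7.47 ± 0.247 CPM (log2 fold change 1.35, SE 0.27, adjusted p = 0.0176 in edgeR). Reads from stretches that are alike in both genes could be split between them or dropped, so their values are not independent. At these levels Aldh1a7 was a small addition to Aldh1a1.

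The enzymes that limit the signal stood at very different levels. Dhrs3 (ENSMUSG00000066026, chr4:144892827-144928209) turns retinaldehyde back into retinol and so takes substrate from the Aldh1a enzymes. It stood at 72.6, 85.3 and 97.9 CPM with negative siRNA and at 70.96, 57.4 and 66.2 CPM with DNMT1 siRNA. All treated samples were below all controls, though treated replicate 1 was close to control replicate 1. The means were 85.3 ± 12.6 and 64.9 ± 6.88 CPM (log2 fold change -0.39, SE 0.12, 95% interval -0.67 to -0.11), and the limits were not passed. The FDR limit alone was passed in DESeq2, in edgeR's exact test, with no filter on low counts and without negative siRNA replicate 1.

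Cyp26b1 (ENSMUSG00000063415, chr6:84571414-84593908) encodes a cytochrome P450 that breaks retinoic acid down. It was rare, at 0.833, 2.95 and 1.04 CPM with negative siRNA and 2.53, 3.09 and 3.31 CPM with DNMT1 siRNA, which rest on 31, 93 and 29 reads and on 41, 46 and 44 reads. Control replicate 2 lay among the treated samples, and the other controls lay below them. The log2 fold change was 0.89 (SE 0.46, 95% interval -0.16 to 1.93) and did not pass. Without negative siRNA replicate 2 it was 1.67 and passed both limits. Without replicate 1 it was 0.56 and did not pass. The other family members, Cyp26a1 and Cyp26c1, had too few reads to be tested (6 and 6 in all control samples, 7 and 6 in all treated samples).

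The 2 carriers had fold changes of opposite sign. Crabp2 (ENSMUSG00000004885, chr3:87948666-87953376) encodes the protein that hands retinoic acid to its receptors in the nucleus. It stood at 1.67, 3.91 and 3.76 CPM with negative siRNA and 0.741, 0.806 and 0.301 CPM with DNMT1 siRNA. All treated samples were below the lowest control, which was replicate 1. The reads behind them were 62, 123 and 105 against 12, 12 and 4, so that counting error is large in the treated samples. The treated samples alone would not have passed the filter on low counts, since replicate 3 had 4 reads. The test of Crabp2 thus depended on its controls, the group where it is higher, and its call is a description. Crabp2 fell to 19.8% of the control mean, from 3.11 ± 1.25 to 0.616 ± 0.274 CPM (log2 fold change -2.30, SE 0.45, 95% interval -3.33 to -1.26). The call depended on having all 3 treated samples. With DNMT1 siRNA replicate 1, 2 or 3 left out, the log2 fold change was -2.47, -2.52 or -2.01 and missed the FDR limit. It held without any 1 of the controls.

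Crabp1 (ENSMUSG00000032291, chr9:54764748-54773110) binds retinoic acid in the cytoplasm. It stood at 10.2, 4.00 and 3.58 CPM with negative siRNA and 10.9, 10.1 and 7.16 CPM with DNMT1 siRNA. Control replicate 1 lay among the treated samples, whereas control replicates 2 and 3 were lower. The means were 5.92 ± 3.70 and 9.39 ± 1.97 CPM (log2 fold change 0.66, SE 0.39, 95% interval -0.23 to 1.54), a difference that did not exceed the spread between samples. Without negative siRNA replicate 1 the log2 fold change was 1.31 and passed both limits. Without replicate 2 or 3 it was 0.43 or 0.40 and did not pass.

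Control replicate 1 was thus the highest of the controls for Crabp1 and the lowest for Crabp2. Of the summed level of both carriers per kb, Crabp2 made up 9.03%, 37.2% and 38.9% in the controls and 3.97%, 4.60% and 2.49% in the treated samples. Crabp1 was the more abundant carrier per kb in all 6 samples.

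The receptors are transcription factors that bind DNA with RXR. Rara (ENSMUSG00000037992, chr11:98927818-98974942), the receptor found in most tissues, stood at 54.3, 62.99 and 61.4 CPM with negative siRNA and 60.8, 61.3 and 59.4 CPM with DNMT1 siRNA. The groups overlapped. The log2 fold change was 0.02 (SE 0.08, 95% interval -0.16 to 0.20), the narrowest interval of the 9 genes, and its sign turned in 4 of 15 alternative analyses.

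Rarg (ENSMUSG00000001288, chr15:102234938-102257517) stood at 70.3, 98.1 and 95.7 CPM with negative siRNA and 72.8, 63.9 and 65.1 CPM with DNMT1 siRNA. Treated replicate 1 lay above control replicate 1, and the other controls lay above all treated samples. The means were 88.0 ± 15.4 and 67.3 ± 4.84 CPM (log2 fold change -0.39, SE 0.13, 95% interval -0.68 to -0.09). Rarg did not pass the limits. It passed the FDR limit alone in DESeq2, with no filter on low counts and without negative siRNA replicate 1.

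Rarb (ENSMUSG00000017491, chr14:16430839-16819156) is itself a well-known target of retinoic acid. It stood at 11.2, 21.3 and 14.9 CPM with negative siRNA and 10.6, 9.80 and 8.81 CPM with DNMT1 siRNA. The treated samples lay below the controls, with treated replicate 1 close to control replicate 1. The means were 15.8 ± 5.12 and 9.72 ± 0.876 CPM (log2 fold change -0.69, SE 0.22, 95% interval -1.21 to -0.18), past the limit on fold change but not the FDR limit. It passed both limits in DESeq2, in edgeR's exact test, with no filter on low counts and without negative siRNA replicate 1 (-0.89), and was -0.41 and not past them without negative siRNA replicate 2. Exons of Top2b on the opposite strand cover 34.1% of the exon bases of Rarb (1793 bases), Top2b had 33882 reads, and the strand setting of the counting is not given in the sources used here. If strand was not used in the counting, reads of these genes could not be told apart over that stretch. Top2b was looked up after the values of Rarb were seen.

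Rarb was the only 1 of the 8 genes with a promoter window in the RefSeq table to hold a paired response element, which is why its site is shown. The letters searched on both strands were the common receptor motif AGGTCA, its relative GGGTCA, and the variants with a double T, which are AGTTCA in one form and GGTTCA in the other, alone or as direct repeats spaced by 1, 2 or 5 bases (DR1, DR2 and DR5). The site lies on the minus strand at chr14:16575506-16575535 (GRCm38.p6), with the DR5 in capitals.
Rarb: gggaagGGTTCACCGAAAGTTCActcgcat
Its motifs are GGTTCA (first) and AGTTCA (last), the spacer CCGAA holds a CpG, and the element begins 53 bases before the RefSeq start. That start (chr14:16575476) lies inside the annotated gene. A DR5 of these letters was present in 32 of 32851 windows (0.0974%), a DR2 in 0.268% and a DR1 in 0.222%. None of the 14 windows of Aldh1a1, Aldh1a2, Crabp1, Rara, Rarg, Dhrs3 and Cyp26b1 held a DR1, DR2 or DR5. Single motifs were found in windows of 4 of the 8 genes and in 43.7% of all windows. A match of letters is not a bound site, and binding was not measured here.

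Among the receptors, per kb of exon, Rarg made up 55.2% ± 1.97 of the sum in the controls and 50.1% ± 1.61 in the treated samples. Rara made up 36.8% ± 2.80 and 44.0% ± 1.69, and Rarb 7.92% ± 1.59 and 5.86% ± 0.330. The order Rarg, Rara, Rarb was the same in all 6 samples.

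In the negative siRNA samples, the order of levels per kb of exon ran from Aldh1a1, Aldh1a2 and Dhrs3 (29.1 ± 4.32 CPM per kb) through Rarg (20.7 ± 3.61), Rara (13.6 ± 1.06), Crabp1 (7.38 ± 4.61), Rarb (3.00 ± 0.972) and Crabp2 (2.35 ± 0.948) to Cyp26b1 (0.301 ± 0.218). The highest level was 104.2 times the lowest. Neighbours whose samples overlapped were Aldh1a1 and Aldh1a2, Aldh1a2 and Dhrs3, Rara and Crabp1, and Rarb and Crabp2, so that their order is not settled beyond the spread. With DNMT1 siRNA, the samples of Crabp2 (0.228 to 0.609 CPM per kb) and Cyp26b1 (0.473 to 0.619) at the bottom overlapped, and the means of the other 7 genes kept their order. With the principal transcript as the length, Aldh1a1 stood apart at the top and Dhrs3 came before Aldh1a2.

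**Figure D2:**
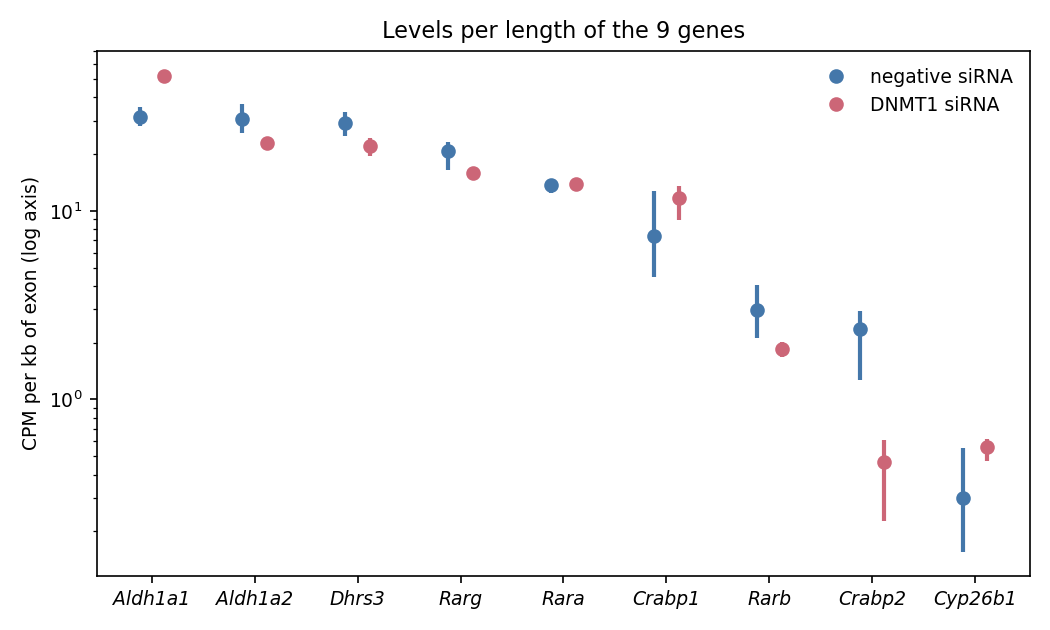
Mean level of the 9 genes in CPM per kb of exon (vertical log axis) with negative siRNA (blue) and DNMT1 siRNA (red), with bars from the lowest to the highest of 3 samples. The control means fall from 31.3 for Aldh1a1 to 0.301 for Cyp26b1, and the bars of Crabp2 show no overlap between treatments.

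The control samples varied more than the treated ones. For all 9 genes the SD of log2 CPM was larger with negative siRNA, with a median SD of 0.267 against 0.130. This was a feature of the table as a whole, since 71.8% of all tested genes had the larger SD with negative siRNA (median 0.174 against 0.0982). The control farthest from the other two was replicate 1 for Crabp1, Crabp2, Aldh1a2, Rara, Rarg and Dhrs3, replicate 2 for Rarb and Cyp26b1, and replicate 3 for Aldh1a1.

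**Figure D3:**
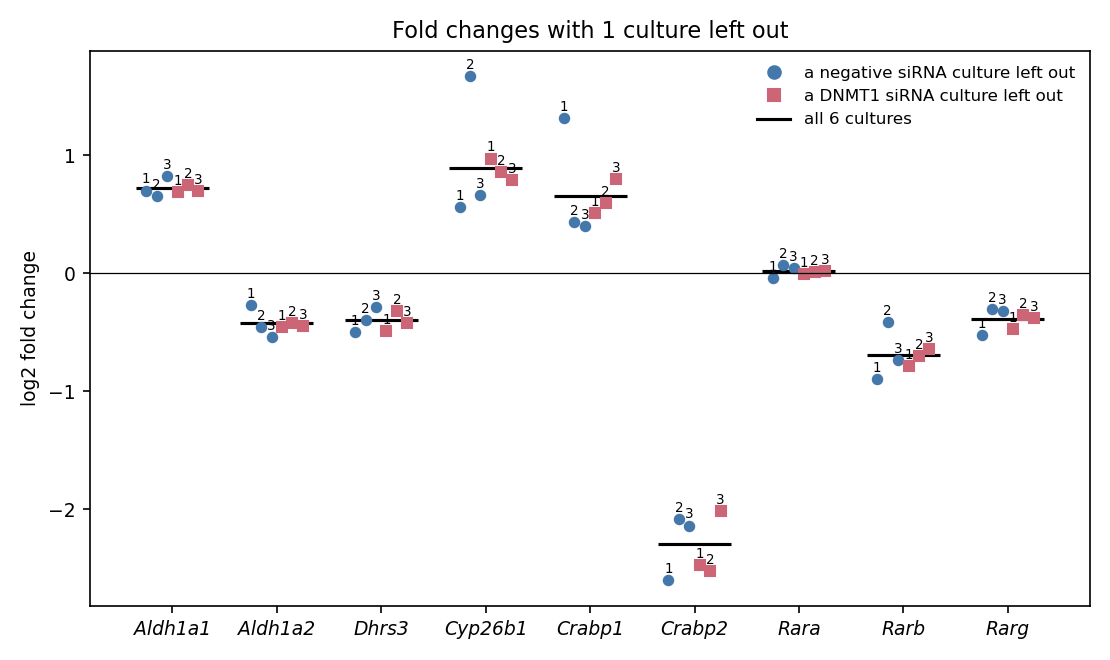
Log2 fold change of the 9 genes (vertical axis) with 1 of the 6 samples left out, for a negative siRNA sample (blue circles) or a DNMT1 siRNA sample (red squares), numbered by replicate, and with all 6 samples (black lines). Crabp1 lies at 1.31 without control replicate 1 and Cyp26b1 at 1.67 without control replicate 2, while the values of Aldh1a1 stay between 0.66 and 0.82.

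The rest of the pathway was read from a list of 53 other genes, of which 38 were tested. Of these, 2 rose (Trim24 and Adh7, 5.26% of the 38) and 0 fell by both limits in edgeR's quasi-likelihood test, and DESeq2 and the exact test gave the same counts. Adh7 entered the 38 only through its treated samples, the group where it is higher. At an unadjusted p below 0.05 there were 4 with a positive and 6 with a negative fold change, 10 of 38 in all, where 29.2% of all tested genes had such a p. The median log2 fold change was 0.0098, close to that of all genes.

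Trim24, a coregulator that binds liganded nuclear receptors, rose from 61.4, 55.9 and 56.9 CPM to 99.3, 96.7 and 89.3 CPM. The groups were far apart (log2 fold change 0.71, SE 0.07, adjusted p = 0.0015 in edgeR), and the call held in all 14 alternatives. Adh7, an alcohol dehydrogenase that oxidises retinol, rose from 0.403, 0.222 and 0.143 CPM to 0.679, 1.07 and 0.979 CPM (log2 fold change 1.76, SE 0.44, adjusted p = 0.0362 in edgeR). It rests on 15, 7 and 4 reads against 11, 16 and 13. Since only the treated samples brought Adh7 past the filter on low counts, its call is a description. Its call was lost in 6 of the 12 alternatives that tested it: with a replicate block (adjusted p = 0.0761 in edgeR), and without control replicate 2 or 3 or any 1 of the treated samples (adjusted p = 0.0526 to 0.163 in edgeR). With at least 10 counts in every sample and with thinned libraries, Adh7 had too few reads to be tested.

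Among the genes of retinol and retinaldehyde conversion, 1 of 9 tested passed, and Rdh5 had the largest fold change of those that did not (log2 fold change 0.51, SE 0.22, adjusted p = 0.174 in edgeR). Dhrs9, singled out after its values were seen, was past the FDR limit but not the limit on fold change. It went from 21.0 ± 3.11 to 15.2 ± 0.597 CPM (log2 fold change -0.47, SE 0.12, adjusted p = 0.0413 in edgeR). Rdh11 had the highest level per kb of this list (36.9 ± 1.88 and 38.3 ± 0.684 CPM). Of the uptake and storage genes 2 were tested in edgeR and 0 passed (0 at an unadjusted p below 0.05). DESeq2, which gave a p for 8 of them, also called 0, with 1 at an unadjusted p below 0.05. Bco1 had the larger fold change of these (1.14, SE 0.75, adjusted p = 0.360 in edgeR), on 30 and 29 reads per group.

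Aldh1a3, the remaining retinaldehyde dehydrogenase of the family tested, was near the floor at 0.512 ± 0.154 and 0.756 ± 0.294 CPM (log2 fold change 0.54, SE 0.41, adjusted p = 0.425 in edgeR). The genes of the receptor partners and of Fabp5, a carrier of fatty acids that also binds retinoic acid, included 3 tested and 0 past the limits in edgeR and in DESeq2, with 1 at an unadjusted p below 0.05 in each. Rxra was the highest of them, at 91.5 ± 10.7 and 92.4 ± 5.83 CPM (log2 fold change 0.02, SE 0.10), and Rxrb had the largest fold change (-0.25, SE 0.10, adjusted p = 0.132 in edgeR). Of 9 coregulators, Trim24 passed, and the acetyltransferase Crebbp had the largest fold change of those that did not pass (-0.26, SE 0.07, adjusted p = 0.0503 in edgeR).

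Of 14 tested genes known to respond to retinoic acid, 0 passed both limits in edgeR's quasi-likelihood test, in its exact test or in DESeq2, and 2 had an unadjusted p below 0.05 in each. Tgm2, the transglutaminase used as a marker of the response, was the highest of them per kb (303.7 ± 74.7 and 265.4 ± 24.5 CPM, log2 fold change -0.19, SE 0.17, adjusted p = 0.489 in edgeR). Hoxa4 had the largest fold change (-0.50, SE 0.58, adjusted p = 0.607), on 74 and 24 reads per group. Meis1, a homeobox gene singled out after its values were seen, was the only 1 past the FDR limit (59.6 and 45.3 CPM, log2 fold change -0.40, SE 0.08, adjusted p = 0.0183 in edgeR) and was under the limit on fold change. The median of the list was -0.11, and 5 fold changes were positive and 9 negative.

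**Figure D4:**
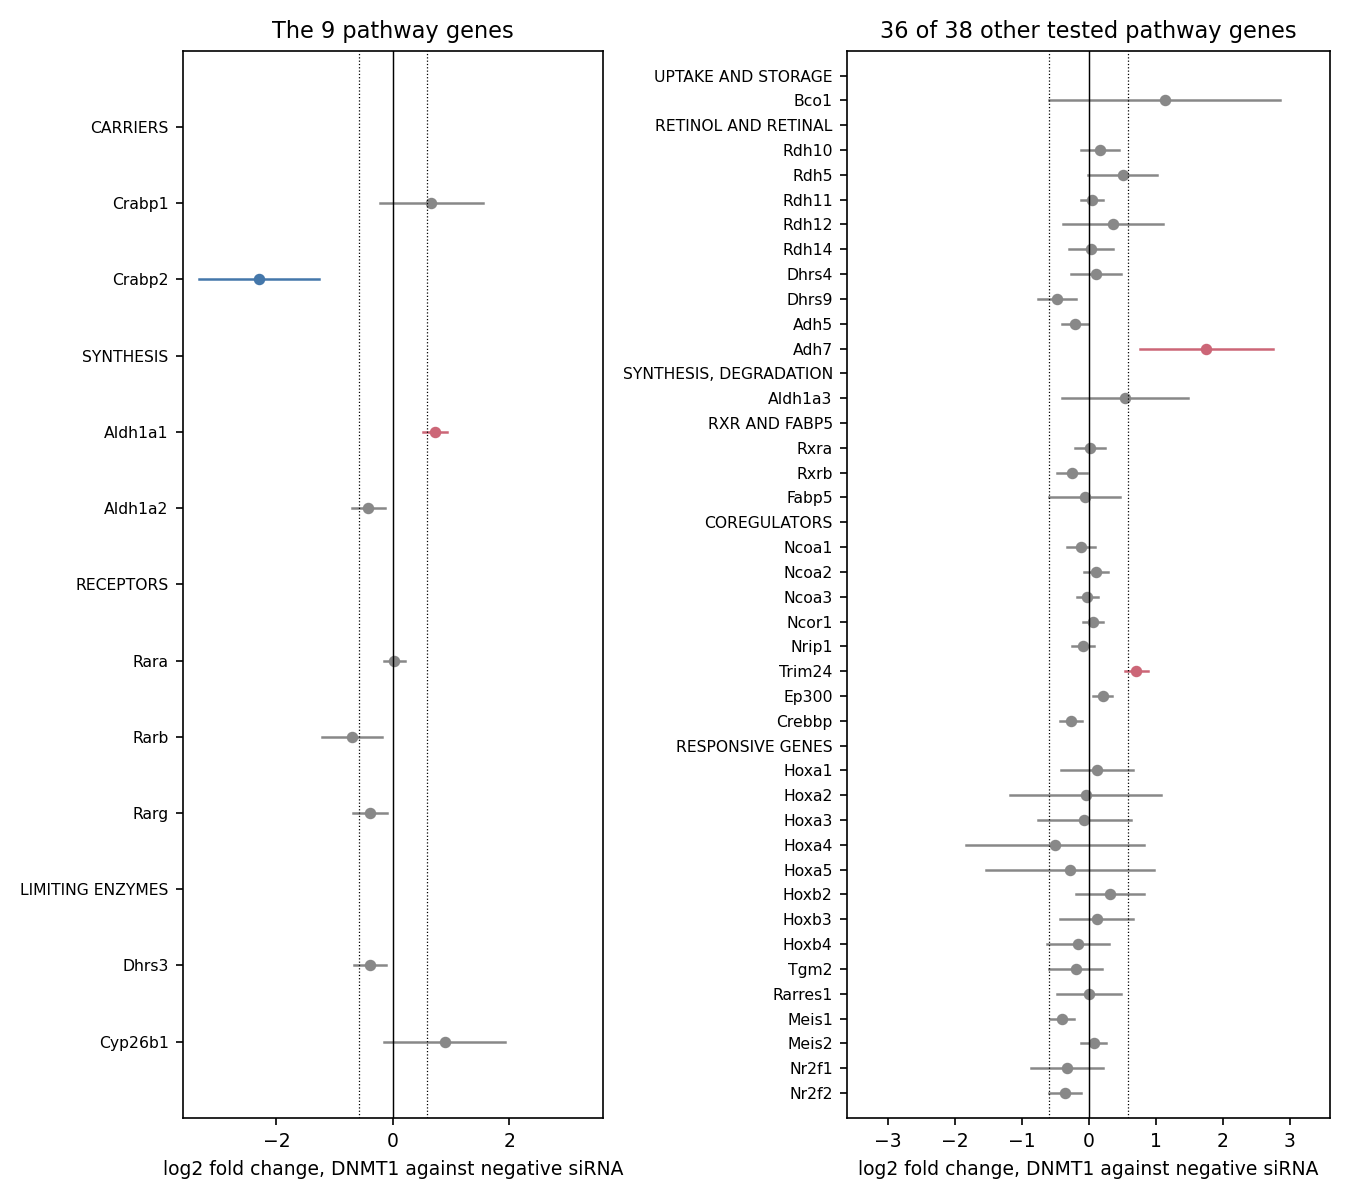
Log2 fold change of DNMT1 siRNA against negative siRNA (horizontal axis) with its 95% interval for the 9 genes (left) and 36 of the 38 other tested pathway genes (right), grouped by role. Dotted lines mark a fold change of 1.5, red and blue points passed both limits in the higher and lower direction, and the 4 coloured genes are Aldh1a1, Crabp2, Trim24 and Adh7.

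The labels give cardiomyocytes, and genes of several cell types were read beside the pathway genes. Of 9 cardiomyocyte genes, which include Myh6 and Tnnt2, all were detected and 7 rose. Tnni1 was the 1 cardiomyocyte gene with a negative fold change (log2 fold change -0.18, SE 0.28) and did not pass. The cardiomyocyte list is taken as a whole in the next sentence. The summed level of the 9 genes was 1888 to 2328 CPM with negative siRNA and 4145 to 5002 CPM with DNMT1 siRNA. Myh6 rose from 745.4 to 1976 CPM and Tnnt2 from 776.4 to 1186 CPM, and Ttn (log2 fold change 1.98) and Ryr2 (1.61) rose most. Fibroblast genes summed to 36133 to 55726 CPM in the controls and to 27510 to 29333 CPM in the treated samples. Most of the control sum came from Col1a1 (mean 23247 CPM) and Col1a2 (10377 CPM). Sums over different genes do not compare numbers of cells between lists. The paper cites earlier flow cytometry in which nearly all sorted cells were cardiomyocytes. Of the 8 fibroblast genes, 3 fell, namely Col1a1 (log2 fold change -0.65), Col1a2 (-0.69) and Dcn (-0.64). Thy1 was the 1 fibroblast gene with a positive fold change (0.36, SE 0.07), past the FDR limit but not the limit on fold change. The count of fibroblast calls was 0 without treated replicate 2 or 3 and 1 without treated replicate 1 or control replicate 2.

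The epicardial list, which is of interest for Aldh1a2, summed to 2074 to 2494 CPM in the controls and 2403 to 2512 CPM in the treated samples. Krt19 fell (log2 fold change -0.82) and the other 7 of 8 did not pass, among them Upk3b (562.7 and 659.3 CPM, 0.23) and Msln (501.4 and 471.0 CPM, -0.09). Endothelial genes summed to 156.7 to 189.3 and 310.0 to 315.2 CPM, and most of this rise was that of Npr3 (means 15.3 and 102.8 CPM). Of these 8 genes 3 rose, Npr3 (log2 fold change 2.74), Emcn (1.38) and Kdr (0.91), while Flt1, the most abundant, did not pass the limit on fold change (0.41). DESeq2 called 5 of the 8 higher and 0 lower. Tek was the 1 endothelial gene with a negative fold change (-0.35, SE 0.09), past the FDR limit but not the limit on fold change. Smooth muscle and pericyte genes summed to 5642 to 8477 and 4852 to 5071 CPM. Pdgfrb fell (log2 fold change -0.62), and the most abundant, Acta2 (-0.51) and Tagln (-0.43), did not pass both limits. Fold changes were negative for 5 and positive for 3 of these 8 genes, the largest positive being Rgs5 (log2 fold change 1.10, SE 0.40), which did not pass, and DESeq2 called 1 higher and 1 lower. The epicardial call was lost without control replicate 3 or any 1 treated sample, the endothelial count was 6 without control replicate 2 and 1 without control replicate 3 or any 1 treated sample, and the smooth muscle count was 4 without control replicate 1, 2 without control replicate 3 and 0 without treated replicate 2. Blood and macrophage genes were scarce, at 9.41 to 24.2 and 8.34 to 12.7 CPM in sum, with haemoglobin reads at 0 or nearly so. The most abundant over all 6 samples were Csf1r (6.68 and 3.43 CPM) and Cd68 (4.12 and 4.67 CPM). Fold changes were negative for 4 of 5 tested genes, with the largest for C1qa (log2 fold change -1.96, SE 0.59) and Adgre1 (-1.71, SE 0.49), and positive for Cd68. The 5 genes gave 0 calls in edgeR's quasi-likelihood test, 3 at an unadjusted p below 0.05, 3 calls in DESeq2, and 3 without control replicate 1. The summed levels of the cardiomyocyte, endothelial, fibroblast and smooth muscle lists did not overlap between treatments, as for Aldh1a1, Crabp2, Aldh1a2, Rarb and Dhrs3, and their part in those results was not tested. The genes of these lists that are outside the naming rule (Tnni1, Thy1, Tek, Rgs5, C1qa and Adgre1) were chosen after their values were seen.

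**Figure D5:**
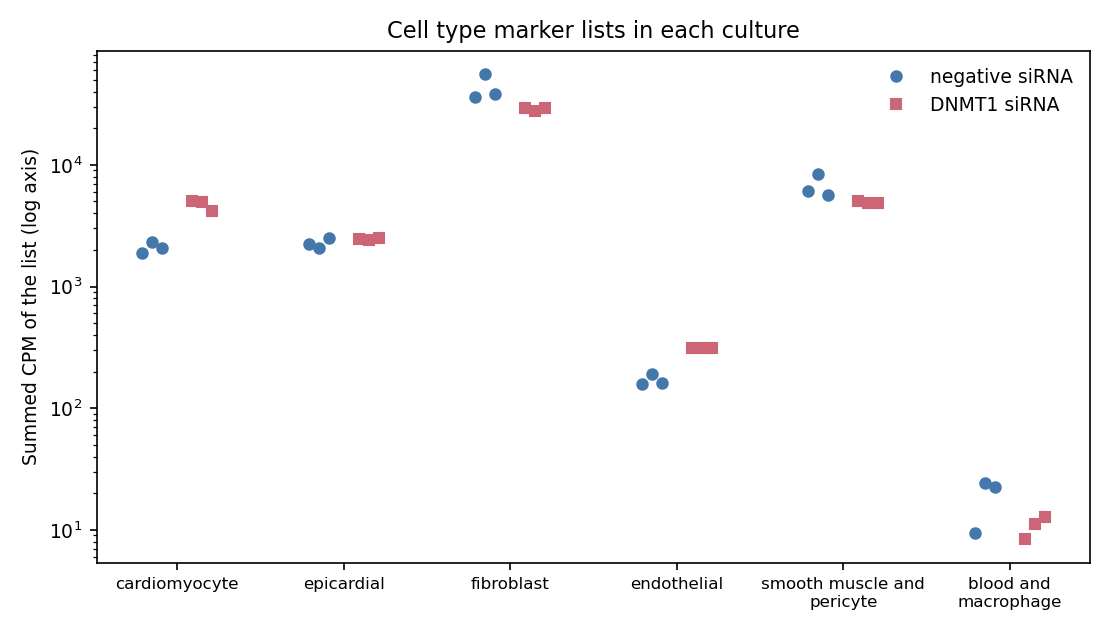
Summed CPM of 6 lists of cell type genes (vertical log axis) in each negative siRNA sample (blue circles) and DNMT1 siRNA sample (red squares). The cardiomyocyte and endothelial sums lie higher in all treated samples, the fibroblast and smooth muscle sums lie lower, and the epicardial sums overlap.

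Genes whose pattern over the 6 samples was most like that of the 3 pathway genes with the largest fold changes were found by the root mean square difference of log2 CPM, each gene centred on its own mean. For Crabp2 these were Lgi2 (difference 0.333) and Cth (0.363), where the median over all tested genes was 1.23. For Cyp26b1 they were Plbd1 (0.0889) and Fn3k (0.147), against a median of 0.782. For Aldh1a1 they were Nipal3 (0.0393) and Pcsk6 (0.0465), against a median of 0.426. Lgi2 went from 10.1 to 1.66 CPM and Pcsk6 from 104.0 to 164.6 CPM. The likeness is over 6 samples of 2 groups and is a description.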

How the data were processed

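The authors used FastQC for read cleaning, TopHat2 with the mm10 genome for mapping and HTSeq with Ensembl genes for counting. The deposited values are raw counts in 1 file per sample, not normalized. Versions of these tools and the strand setting are not given in the sources used here.

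Counts were fitted with edgeR 4.0.16 (limma 3.58.1, R 4.3.3): TMM normalization, filterByExpr (minimum count 10, minimum total 15), a quasi-likelihood F test of treatment with no block, and Benjamini-Hochberg adjustment over 15470 genes. A gene was called at FDR below 0.05 with a fold change beyond 1.5 either way. For the SE, the size of the log2 fold change was divided by the root of F. CPM used TMM-scaled library sizes, and lengths are unions of GENCODE M21 exons, which hold 42548 of the 43629 genes. Alternatives were DESeq2 1.42.0, the exact test, RLE, other filters, thinned libraries, no limit on fold change, a replicate block and leaving out each sample. The fit was tested on simulated data. Python 3.11.15, pandas 2.3.3, numpy 2.4.6, scipy 1.17.1 and matplotlib 3.10.9 were used for the remaining steps.

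The members and all lists were chosen with earlier results of these data known. Named were the 9 members, Dnmt1, Dnmt3a and Dnmt3b, in each other pathway list the called genes, the largest fold change not called and the highest level per kb, in each cell type list the 2 most abundant genes and up to 3 called genes, and the 2 genes most like each of 3 members. The values of some genes that the rule names are not reported here. Genes named outside this rule are marked as such or are counts of untested genes. Protein sequences were not used here, so no identity between members was computed. Replicate pairs of a group differed beyond sampling noise (chi-square per degree of freedom 2.70 to 54.5), so no library was counted as a copy.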

Additional observations from a re-analysis of the deposited data

How the results depend on the processing

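The sizes of these fold changes rest on 3 samples per group, and Crabp2, Crabp1, Cyp26b1 and Adh7 on few reads. Called members numbered 2, and 5 with no filter on low counts (with Rarb, Crabp1 and Cyp26b1), 1 with at least 10 counts in every sample (where Crabp2 was no longer tested), and 1 to 4 with 1 sample left out. DESeq2 and the exact test called 3. Called genes among the other pathway genes numbered 2, and 1 with at least 10 counts in every sample, 1 with thinned libraries, 4 with no limit on fold change, and 1 to 2 with 1 sample left out. The sign of Rara turned in DESeq2 (-0.0025), with no filter (-0.0075), without negative siRNA replicate 1 (-0.0398) and without DNMT1 siRNA replicate 1 (-0.0048), within a range of -0.0398 to 0.0658 with 1 sample left out, and the cause was not tested. Dnmt1 was called in all 14 alternatives, with log2 fold changes of -2.09 to -1.93. With 1 sample left out, the genes called numbered 4 to 8 in the cardiomyocyte, 0 to 1 in the epicardial, 0 to 3 in the fibroblast, 1 to 6 in the endothelial, 0 to 4 in the smooth muscle and pericyte and 0 to 3 in the blood and macrophage list. The difference in reads assigned to no gene was 14.2 percentage points (12.7 to 16.8 with 1 sample left out), and 4.74 as a share of all reads. With single motifs in place of paired elements, 4 members instead of 1 had a match. With principal transcripts as the length, the highest level was 183.2 times the lowest.

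Same-numbered samples deviated from their group means with a mean correlation of 0.0043 and were not treated as pairs. With the number as a replicate block, the same 2 members were called, and 1 of the other pathway genes, Trim24, instead of 2. Dnmt1 kept its call under the block (-2.03).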
